A study of Homo sapiens with 6 samples.

Results

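The urokinase system turns plasminogen, an inactive protein of the blood, into the protease plasmin at the surface of cells. Urokinase (encoded by PLAU) does this when it is bound to its receptor on the cell membrane (PLAUR), tissue plasminogen activator (PLAT) does it mainly on fibrin, and serpins such as SERPINE2 trap both activators. Epithelial cells also carry the membrane serine protease matriptase (ST14), which can activate urokinase and is held in check by the Kunitz-type inhibitors HAI-1 (SPINT1) and HAI-2 (SPINT2), and the membrane metalloproteinase MT1-MMP (MMP14), whose secreted relatives are blocked by TIMP1. In carcinomas these proteases are known for the breakdown of matrix around the cell and for the release of growth factors from it.

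The values of 9 genes of this system are described here, out of 60662 genes with a value in each library. They are PLAU, PLAT, PLAUR, SERPINE2, ST14, SPINT1, SPINT2, MMP14 and TIMP1, taken by symbol, and each symbol matched 1 gene. They were chosen by function and selected on differences in TPM between the groups that were already in view, so those differences are a description and carry no test.

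RNA came from HCT116, an established human colorectal carcinoma cell line grown in McCoy's medium with fetal bovine serum. Cells had been stably transduced with lentivirus carrying a control hairpin (shCtrl, genotype labelled WT) or 1 hairpin against the long non-coding RNA GMDS-AS1 (GMDS-AS1 shRNA2, genotype labelled knockdown, called KD below), and 3 poly-A selected libraries were sequenced per group. The labels call the libraries biological replicates and do not say whether they came from separate transductions, so the spread between them, which the p-values measure, may be technical. Whether each line was 1 clone or a pool of cells is not given in the sources used here. Values are TPM as the authors deposited them, a level per transcript length and library total that allows levels of different genes to be compared, and fold changes (KD minus shCtrl, called log2 difference with its standard error, SE) are on the log2(TPM + 1) scale after scaling between libraries, which understates the change of low genes. The targeted RNA, listed as GMDS-DT, was at 1.34 to 2.21 TPM in shCtrl libraries and at 0.79 to 0.91 TPM in KD libraries, a log2 difference of -0.41 (SE 0.137, limma adjusted p = 0.0407). The groups did not overlap, but the adjusted p was 0.0714 to 0.117 without shCtrl library 1 or 2 or without any 1 KD library. The depth behind each value is unknown, because TPM holds no count of reads.

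The scaling bears on every direction given below. The KD libraries had lower scaling factors than the shCtrl libraries, by a log2 difference of -0.25 on average, and without scaling the median of all 16901 genes tested lay at a log2 fold change of -0.20 in place of -0.002. Of the 6 epithelial markers EPCAM, KRT8, KRT18, KRT19, CDH1 and CDX2 all were detected, with a summed level of 9171 to 9621 TPM in shCtrl libraries and 3444 to 3547 TPM in KD libraries, mostly through KRT8 and KRT18, and the part of this difference in the results below was not tested. The summed level of 7 fibroblast markers was 13.6 to 15.1 TPM in shCtrl libraries and 10.2 to 11.2 TPM in KD libraries, almost all of it COL1A1, while DCN and LUM were at or near 0. The 4 endothelial markers summed to 1.13 TPM at most, and of the 5 leukocyte markers PTPRC was listed at 0 in all 6 libraries and CD68 was the only one tested, so the defining markers of these cells were at or near 0 apart from COL1A1 and CD68.

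A start window of each of PLAU, TIMP1, PLAUR and SPINT1 is shown first, and whether these sequences have a part in the levels was not tested. RefSeq on GRCh38.p14 gives 9 start windows of 300 bases, from 250 before to 50 after the start, for 6 of the 9 genes. Matches to TGANTCA (the AP-1 motif), GGAATG (the TEAD motif) and TTCNNNGAA (the STAT motif) were looked for on both strands, and matches are in capitals.
PLAU (chr10:73910882-73911181, + strand): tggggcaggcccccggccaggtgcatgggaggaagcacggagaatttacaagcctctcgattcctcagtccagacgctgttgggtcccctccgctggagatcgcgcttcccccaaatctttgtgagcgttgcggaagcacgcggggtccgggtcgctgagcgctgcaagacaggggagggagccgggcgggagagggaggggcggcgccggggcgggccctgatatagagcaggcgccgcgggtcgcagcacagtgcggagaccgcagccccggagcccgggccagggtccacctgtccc
TIMP1 (chrX:47582186-47582485, + strand): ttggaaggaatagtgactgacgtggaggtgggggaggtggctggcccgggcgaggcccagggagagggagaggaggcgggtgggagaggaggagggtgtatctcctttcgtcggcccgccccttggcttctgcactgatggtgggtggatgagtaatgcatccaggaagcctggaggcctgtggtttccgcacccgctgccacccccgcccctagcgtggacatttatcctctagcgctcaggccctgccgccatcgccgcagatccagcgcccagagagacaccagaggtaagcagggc
PLAUR (chr19:43670120-43670419, - strand): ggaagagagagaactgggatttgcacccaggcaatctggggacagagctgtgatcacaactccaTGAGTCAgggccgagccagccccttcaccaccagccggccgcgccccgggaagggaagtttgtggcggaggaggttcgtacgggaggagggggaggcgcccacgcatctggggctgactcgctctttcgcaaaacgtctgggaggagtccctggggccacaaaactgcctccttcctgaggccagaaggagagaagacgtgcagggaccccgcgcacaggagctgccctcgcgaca
SPINT1 (chr15:40843798-40844097, + strand): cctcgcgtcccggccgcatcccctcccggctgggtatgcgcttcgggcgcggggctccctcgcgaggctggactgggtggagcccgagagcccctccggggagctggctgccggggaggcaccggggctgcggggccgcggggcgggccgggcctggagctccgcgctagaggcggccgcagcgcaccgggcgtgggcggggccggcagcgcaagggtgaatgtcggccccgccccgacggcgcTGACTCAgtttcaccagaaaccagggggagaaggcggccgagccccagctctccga

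The AP-1 motif stood 186 bases before the start in PLAUR and 6 bases before it in the window of SPINT1 shown. The other window of SPINT1 held no match to any of the 3 motifs. The AP-1 motif was in 2 of the 9 windows. It is in 7.71% of all 35116 windows of this length, and in 4.6% of those of 11046 tested genes, taken as 1 window per gene. Neither window of PLAU, nor those of TIMP1, MMP14 and SERPINE2, held a match to any of the 3 motifs. The TEAD motif is in 14.0% of all windows and 10.8% of those of tested genes. The STAT motif is in 7.66% and 6%. A match is only a run of letters in this window, and sites farther from the start were not looked at.

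In GMDS-AS1 KD cells the urokinase transcript was lower by far more than those of its receptor and of the other activator. PLAU (ENSG00000122861, chromosome 10 from 73909177 to 73917497 in GRCh38, forward strand) measured 79.36, 74.36 and 74.65 TPM with the control hairpin and 9.37, 8.48 and 8.34 TPM with the GMDS-AS1 hairpin. The groups were far apart, with means of 76.1 ± 2.81 TPM (SD, n = 3) and 8.73 ± 0.559 TPM (SD, n = 3), an 8.72-fold lower level in deposited TPM. After scaling the log2 fold change was -2.75 (standard error 0.0563), the 10th lowest among the genes tested. With TPM as deposited it was -2.99. PLAU thus went from percentile 91.2 of the genes tested to percentile 53.2 by its level. In bulk RNA, fewer cells that express a gene and less of its RNA per cell cannot be told apart.

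An uncharacterized gene on the opposite strand, C10orf55, overlaps PLAU and shares 916 of its 2950 annotated exon bases. The sources used here do not state that reads were counted by strand, so reads of the overlap cannot be told apart. C10orf55 measured 0.81, 0.86 and 0.74 TPM with the control hairpin and 0.04, 0.22 and 0.19 TPM with the GMDS-AS1 hairpin. It passed the filter on low values only through the shCtrl libraries, so no test of it is given. Its highest level was thus far under the lowest level of PLAU.

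PLAT (chromosome 8 from 42175233 to 42207724, reverse strand), the activator that works mainly on fibrin, had the lower level of the pair in control cells. It measured 15.83, 15.46 and 14.06 TPM with the control hairpin and 9.13, 11.16 and 11.91 TPM with the GMDS-AS1 hairpin. All KD libraries were below all shCtrl libraries, but the gap was small beside that of PLAU, with a log2 difference of -0.24 (SE 0.10). It was -0.46 with TPM as deposited and -0.13 without KD library 1. In KD cells the ranges of PLAU and PLAT overlapped, so their levels could no longer be ordered there. The ratio of PLAU to PLAT within a library, which no scaling can change, was 5.01, 4.81 and 5.31 in the shCtrl libraries and 1.03, 0.760 and 0.700 in the KD libraries.

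PLAUR (ENSG00000011422, chromosome 19 from 43646095 to 43670547, reverse strand), whose product holds urokinase at the membrane, was lower by a small margin. It measured 61.37, 63.98 and 61.94 TPM with the control hairpin and 50.12, 46.24 and 42.44 TPM with the GMDS-AS1 hairpin. The KD libraries were the lower ones without overlap, and the log2 fold change was -0.19 (standard error 0.0637). It was -0.43 with TPM as deposited, -0.27 with upper-quartile scaling and -0.11 without KD library 3. The ratio of PLAU to PLAUR was 1.29, 1.16 and 1.21 in the shCtrl libraries and 0.187, 0.183 and 0.197 in the KD libraries. The ligand transcript was thus slightly the more abundant in control cells, while in KD cells the receptor transcript was 5.30 ± 0.188 times (SD, n = 3) that of the ligand. RN7SL368P, within the span of PLAUR, shares no exon base with it.

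**Figure D1:**
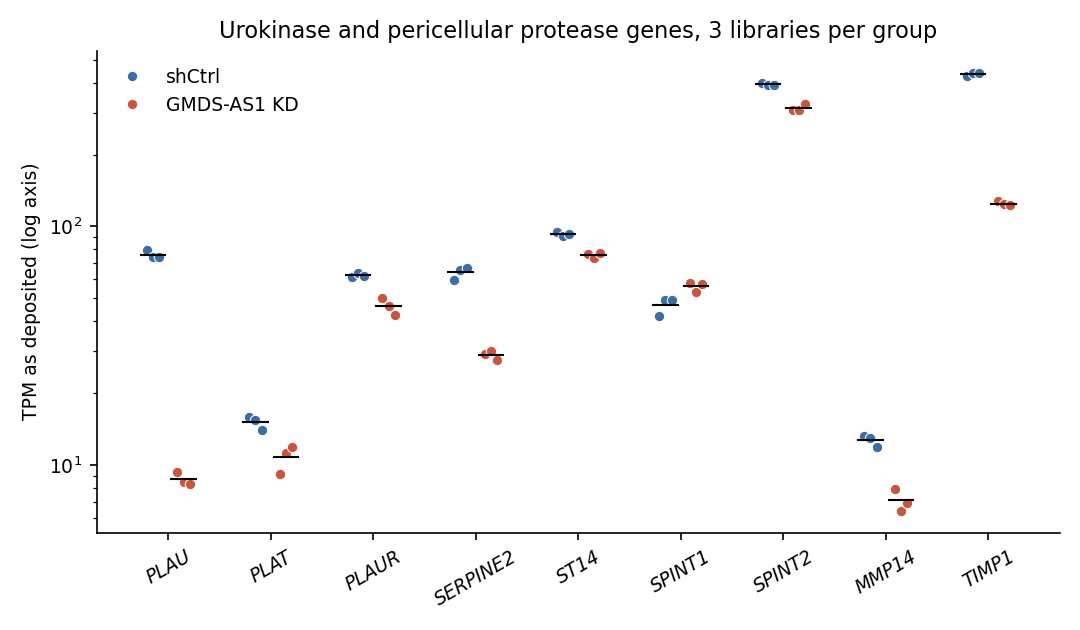
TPM as deposited (log axis) of the 9 genes in each of the 3 shCtrl libraries (blue) and 3 GMDS-AS1 KD libraries (red), with black lines at the group means. PLAU shows the widest gap, from 76.1 to 8.73 TPM, and SPINT1 is the 1 gene with KD libraries above the shCtrl libraries.

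SERPINE2 (ENSG00000135919, chromosome 2 from 223975112 to 224039319, reverse strand) encodes protease nexin-1, a serpin that inhibits urokinase, tissue plasminogen activator and thrombin. It measured 59.63, 65.85 and 66.93 TPM with the control hairpin and 29.1, 30.11 and 27.4 TPM with the GMDS-AS1 hairpin. The groups did not overlap, with a log2 difference of -0.88 (SE 0.0648), which became -1.12 with TPM as deposited and so passed a 2-fold difference only on that scale. The ratio of PLAU to SERPINE2 was 1.12 to 1.33 in the shCtrl libraries and 0.282 to 0.322 in the KD libraries. The activator transcript was therefore lower in KD cells relative to this inhibitor as well as relative to its receptor.

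The matriptase transcript and that of HAI-2 were lower in KD cells in deposited TPM, by an amount that depended on the scaling, while that of HAI-1 was higher. ST14 (ENSG00000149418, chromosome 11 from 130159562 to 130210376, forward strand) measured 94.85, 90.99 and 92.89 TPM with the control hairpin and 76.84, 73.7 and 77.37 TPM with the GMDS-AS1 hairpin. After scaling its groups overlapped, and the log2 fold change was -0.04 (standard error 0.0316), against -0.29 with TPM as deposited, -0.13 with upper-quartile scaling, -0.08 without shCtrl library 2 and -0.03 without KD library 2. SPINT2 (ENSG00000167642, chromosome 19 from 38244035 to 38292614, forward strand) measured 398.88, 392.31 and 391.26 TPM with the control hairpin and 308.57, 307.78 and 325.49 TPM with the GMDS-AS1 hairpin. Its scaled groups did not overlap, and its log2 fold change was -0.08 (standard error 0.0256), against -0.33 with TPM as deposited and -0.17 with upper-quartile scaling. AC011479.1, on the same strand, shares 242 of the 5199 exon bases of SPINT2 and was at 0.55 to 1.43 TPM, while PPP1R14A, which also overlaps it, shares none.

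SPINT1 (ENSG00000166145, chromosome 15 from 40844018 to 40858207, forward strand), the inhibitor that matriptase is most closely tied to in epithelia, was the 1 gene of the 9 with a higher level in KD cells. It measured 42.2, 48.96 and 48.92 TPM with the control hairpin and 58.01, 53.16 and 57.38 TPM with the GMDS-AS1 hairpin. The lowest KD library was above the highest shCtrl library, and the log2 fold change was 0.51 (standard error 0.0679). It was 0.26 with TPM as deposited and was above 0 in all 13 alternatives run. Of these, the filters, the variance trend and the replicate block could not change it. SPINT1-AS1, on the opposite strand, shares 100 of the 3542 exon bases of SPINT1 and was at 6.57 to 10.92 TPM over the 6 libraries, with a log2 difference of 0.37 (limma adjusted p = 0.0883).

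Ratios within a library do not depend on the scaling, and show only how 2 transcripts stood to each other, not which of them differed. ST14 to SPINT2 was 0.238, 0.232 and 0.237 in the shCtrl libraries and 0.249, 0.239 and 0.238 in the KD libraries, and these ranges overlapped. ST14 to SPINT1 was 2.25, 1.86 and 1.90 in the shCtrl libraries and 1.32, 1.39 and 1.35 in the KD libraries. Relative to HAI-1 the matriptase transcript was thus lower in every KD library. SPINT2 was 8.49 ± 0.835 times (SD, n = 3) the level of SPINT1 in shCtrl cells and 5.59 ± 0.245 times (SD, n = 3) in KD cells, so HAI-2 remained the more abundant inhibitor transcript in both.

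TIMP1 (ENSG00000102265, X chromosome from 47582313 to 47586789, forward strand), a secreted inhibitor of matrix metalloproteinases, was the most abundant of the 9 transcripts in control cells. It measured 425.95, 441.19 and 439.67 TPM with the control hairpin and 127.4, 123.78 and 122.88 TPM with the GMDS-AS1 hairpin. The level was 3.49-fold lower in deposited TPM, with no overlap. After scaling the log2 difference was -1.55 (SE 0.0298), against -1.80 with TPM as deposited. The gene lies within SYN1, which is on the other strand, shares no exon base with it and was at 0.42 TPM at most.

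MMP14 (ENSG00000157227, chromosome 14 from 22836557 to 22849027, forward strand), which encodes the membrane metalloproteinase that activates MMP2 and is itself only weakly inhibited by TIMP1, was the least abundant. It measured 13.24, 12.97 and 11.88 TPM with the control hairpin and 7.94, 6.42 and 6.92 TPM with the GMDS-AS1 hairpin. The groups did not overlap and the log2 fold change was -0.54 (standard error 0.0843). Because TIMP1 was lower by more than MMP14, the ratio of TIMP1 to MMP14 was 34.4 ± 2.44 (SD, n = 3) in shCtrl cells and 17.7 ± 1.62 (SD, n = 3) in KD cells.

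**Figure D2:**
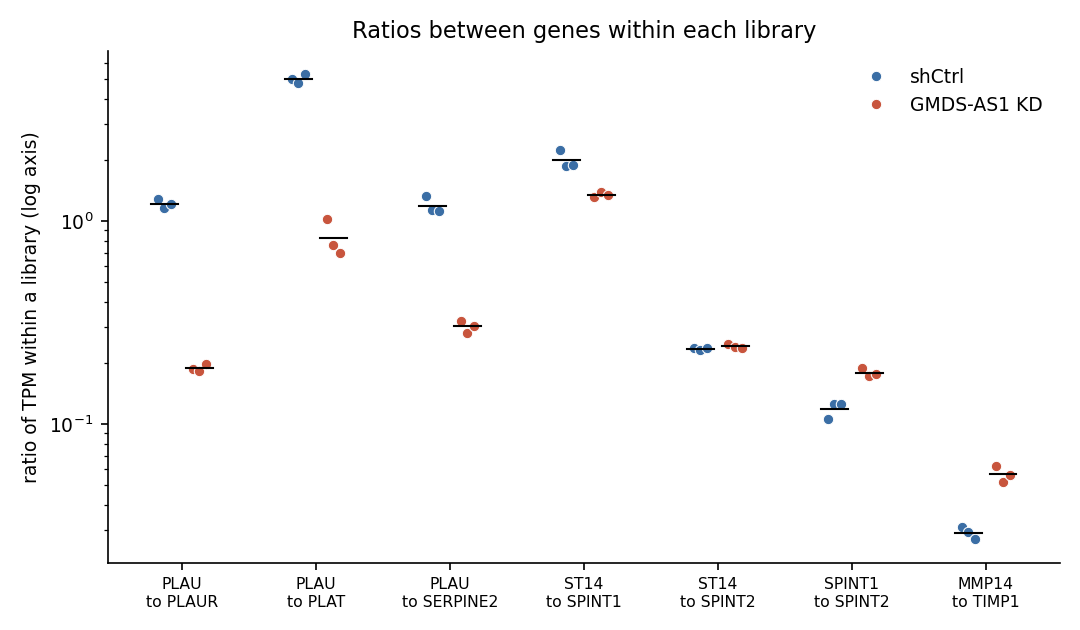
Ratio of TPM between pairs of genes within each library (log axis), 3 shCtrl libraries in blue and 3 GMDS-AS1 KD libraries in red, with black lines at the means. The ratio of ST14 to SPINT2 overlaps between the groups (0.232 to 0.249), while PLAU to PLAUR goes from 1.22 to 0.189 and MMP14 to TIMP1 from 0.0292 to 0.0568.

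Seen as a whole, 8 of the 9 genes had KD libraries below the shCtrl libraries without overlap in deposited TPM, where 44.9% of all genes tested did, and 1 had them above, where 18.8% did. After scaling these counts were 7 and 1, where 30.3% and 31.7% of all genes did. PLAU and TIMP1, 2 of the 9, were over 2-fold lower after scaling, beside 4.24% of all genes called lower (7.17% in either direction). Those calls also needed an adjusted p under 0.05 from limma, which is not given for the 9, so the shares are not compared. The median log2 fold change of the 9 genes was -0.24, beside -0.002 for all genes tested. Since the genes were chosen with these differences known, nothing is read from these counts.

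The summed level of the 9 transcripts came to 1191, 1206 and 1202 TPM with the control hairpin and to 676, 661 and 680 TPM with the GMDS-AS1 hairpin. In control cells TIMP1 made up 36.3 ± 0.474% of that sum and SPINT2 32.9 ± 0.546% (SD, n = 3). In KD cells TIMP1 made up 18.5 ± 0.416% and SPINT2 46.7 ± 1.13% (SD, n = 3). The share of PLAU went from 6.35 ± 0.275% to 1.3 ± 0.0805% and that of SPINT1 from 3.89 ± 0.301% to 8.35 ± 0.275% (SD, n = 3).

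The order of the levels differed between the groups. From the highest, it was TIMP1, SPINT2, ST14, PLAU, SERPINE2, PLAUR, SPINT1, PLAT and MMP14 in shCtrl cells, and only SERPINE2 and PLAUR were neighbours whose libraries overlapped. In KD cells it was SPINT2, TIMP1, ST14, SPINT1, PLAUR, SERPINE2, PLAT, PLAU and MMP14, and only PLAT and PLAU overlapped. PLAU moved from rank 4 to rank 8 and SPINT1 from rank 7 to rank 4.

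**Figure D3:**
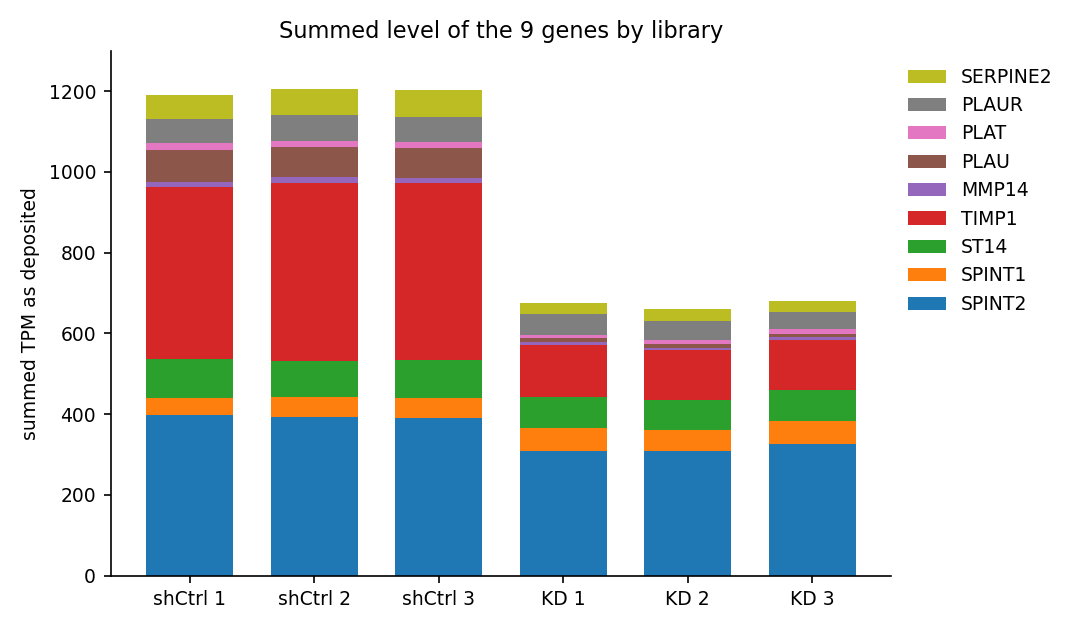
Summed TPM as deposited of the 9 genes, stacked by gene, in each library. The 3 shCtrl libraries reach 1191 to 1206 TPM and the 3 KD libraries 661 to 680 TPM, and most of the gap is the segment of TIMP1 (436 against 125 TPM on average).

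**Figure D4:**
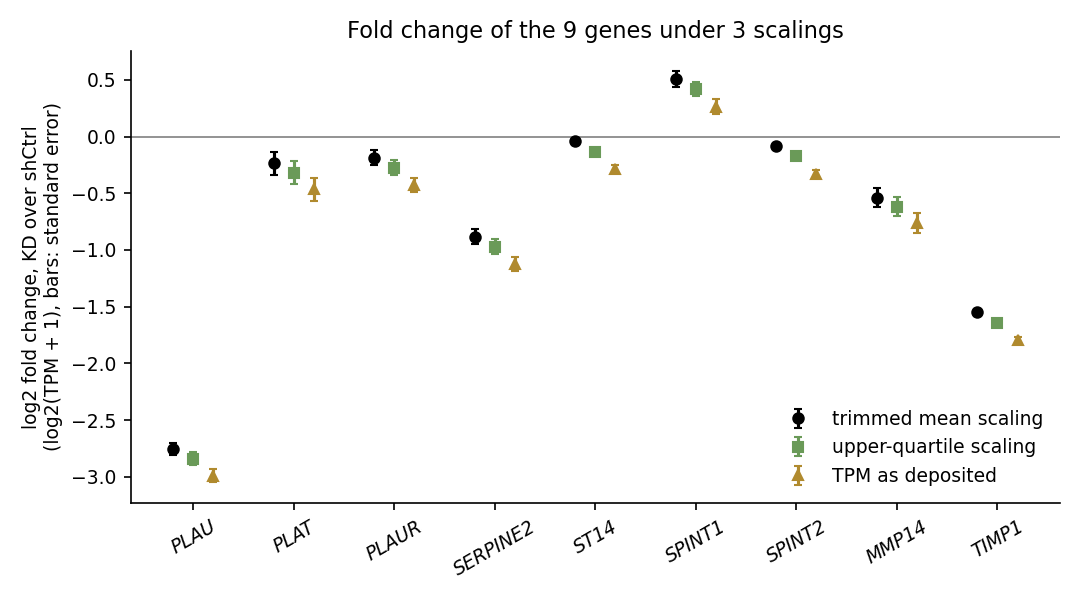
Log2 fold change of KD over shCtrl on the log2(TPM + 1) scale for the 9 genes with 3 scalings, with bars for the standard error from limma (n = 3 per group). Each gene keeps its sign under the 3 scalings, and ST14 runs from -0.04 with the trimmed mean scaling to -0.29 with TPM as deposited.

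The study is concerned with the RNA-binding protein HuR, which binds AU-rich stretches in the 3' UTR of messenger RNAs, so the pentamer ATTTA was counted in the 3' UTR of 1 transcript per gene. Of the 9 genes 6 held at least 1 (66.7%), as did 67.9% of the 12918 genes tested that have such a UTR. PLAU held 2 in 932 bases, PLAT 2 in 760 bases, SERPINE2 2 in 755 bases and PLAUR 1 in 310 bases. Of 1676 genes with a UTR of 80% to 125% of the length of that of PLAU, 46.6% held as many as PLAU or more. TIMP1, with a UTR of 98 bases, MMP14, with 1722 bases, and ST14, with 553 bases, held none. A pentamer is a run of letters, and whether it has a part in the levels was not tested.

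The other genes of the plasminogen system were taken from a list of 24, of which 18 passed the filter on low values and were tested with limma. At an adjusted p under 0.05 and at least 2-fold, 2 of the 18 were lower in KD cells, where 4.24% of all genes were, and 0 were higher, where 2.93% were. No gene of the list was 2-fold higher at an unadjusted p under 0.05 either. SERPINA5, 1 of the 2 that were lower, met the filter through the shCtrl libraries, as described below. At any fold change 9 were lower and 3 were higher (25.9% and 28.5% of all genes), and the median log2 fold change was -0.29. HRG and THBD, named here after their values were seen, are among the 9 and passed the filter only through the shCtrl libraries. Without them 7 of 16 were lower and 3 were higher, with a median of -0.24. SERPINA5 is still among these 7 and in this median, and is no support there either.

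MRC2 encodes uPARAP, a collagen uptake receptor that associates with the urokinase receptor. It fell from 18.2 ± 0.229 TPM to 3.76 ± 0.101 TPM (SD, n = 3), a log2 difference of -1.80 (SE 0.0613, limma adjusted p = 1.86e-06). SERPINA5, the protein C inhibitor, which also blocks urokinase, fell from 3.24 ± 0.446 TPM to 0.517 ± 0.0814 TPM (SD, n = 3), a log2 difference of -1.34 (SE 0.118). Its KD libraries were at 0.48, 0.61 and 0.46 TPM, around the filter of 0.5 TPM. KD library 2 was above that value, but the rule of 3 or more libraries was met only with the shCtrl libraries. The p of SERPINA5 is therefore not given, and its call, 1 of the 2 of the list, is no support for the list. Levels of SERPINA5 were low in all 6 libraries, and it was not tested with the filter of at least 1 TPM in every library.

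The transcript of plasminogen itself was too low to be tested. PLG was at 0 to 0.44 TPM over the 6 libraries. Transcripts of surface proteins that bind plasminogen were abundant in both groups, though those of ENO1 and ANXA2 have processed pseudogenes that can share reads with them. ENO1, a glycolytic enzyme that also binds plasminogen at the membrane, rose from 1830 ± 34.3 TPM to 2287 ± 42.9 TPM (SD, n = 3), a log2 difference of 0.57 (SE 0.020, limma adjusted p = 2.02e-06) that was 0.32 with TPM as deposited. The annexin A2 complex, which binds plasminogen and tissue plasminogen activator, showed small differences. ANXA2 had a log2 difference of 0.08 (SE 0.0242, limma adjusted p = 0.0309) that became -0.17 with TPM as deposited and -0.01 with upper-quartile scaling, and its partner S100A10 had one of -0.10 (SE 0.0235, limma adjusted p = 0.0122), which was -0.34 with TPM as deposited and had an adjusted p of 0.118 without the variance trend. PLGRKT, a plasminogen receptor with a C-terminal lysine, was at 14.61 to 18.08 TPM in shCtrl libraries and at 9.96 to 12.11 TPM in KD libraries, with a log2 difference of -0.28 (limma adjusted p = 0.0444). That adjusted p was above 0.05 without shCtrl library 1 or 3 or KD library 1 or 2 (0.065 to 0.123). The adjusted p of ANXA2 was likewise above 0.05 without any 1 shCtrl library or KD library 3 (0.0584 to 0.17). LRP1, which takes up complexes of urokinase with its inhibitors, had a log2 difference of -0.20 (SE 0.0888, limma adjusted p = 0.102), which was -0.40 and passed the test with TPM as deposited (limma adjusted p = 0.00816).

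The other list held 52 pericellular proteases, their inhibitors and their substrates, of which 31 were tested. At an adjusted p under 0.05 and at least 2-fold, 4 were lower in KD cells (4.24% of all genes) and 0 were higher (2.93% of all genes), and none was 2-fold higher at an unadjusted p under 0.05. At any fold change 13 were lower and 8 were higher (25.9% and 28.5% of all genes). The median lay at -0.24 on the log2 scale, beside -0.002 for all genes tested. Without PRSS23, described below, 3 of 30 were at least 2-fold lower, and at any fold change 12 were lower and 8 higher, with a median of -0.23. The secreted matrix metalloproteinases best known from tumour stroma were hardly present, and MMP1, MMP2, MMP3, MMP9, MMP10 and MMP13 were too low to be tested, with 0.47 TPM at most.

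ADAM9, a membrane metalloproteinase with shedding activity, fell from 106 ± 3.49 TPM to 23.7 ± 0.444 TPM (SD, n = 3), a log2 difference of -1.88 (SE 0.0349, limma adjusted p = 2.4e-07). F2RL1 encodes the protease-activated receptor PAR2, which matriptase can cleave, and it measured 278.54, 264.92 and 259.29 TPM with the control hairpin and 108.74, 109.26 and 108.31 TPM with the GMDS-AS1 hairpin. Its log2 difference was -1.04 (SE 0.0314, limma adjusted p = 1.24e-06). The groups were far apart.

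The other calls were in low transcripts. TIMP3, the metalloproteinase inhibitor that stays bound to the matrix, fell from 2.87 ± 0.137 TPM to 0.617 ± 0.10 TPM (SD, n = 3), a log2 difference of -1.12 (limma adjusted p = 0.000129). TIMP2 fell less, with a log2 difference of -0.29 (SE 0.0444, limma adjusted p = 0.00144) that was -0.53 with TPM as deposited. PRSS23, a secreted serine protease, measured 3.31, 2.79 and 2.97 TPM with the control hairpin and 0.26, 0.11 and 0.09 TPM with the GMDS-AS1 hairpin. It passed the filter only through the shCtrl libraries, where it was high, so its p is not given and its call, 1 of the 4 of the list, is no support for the list.

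**Figure D5:**
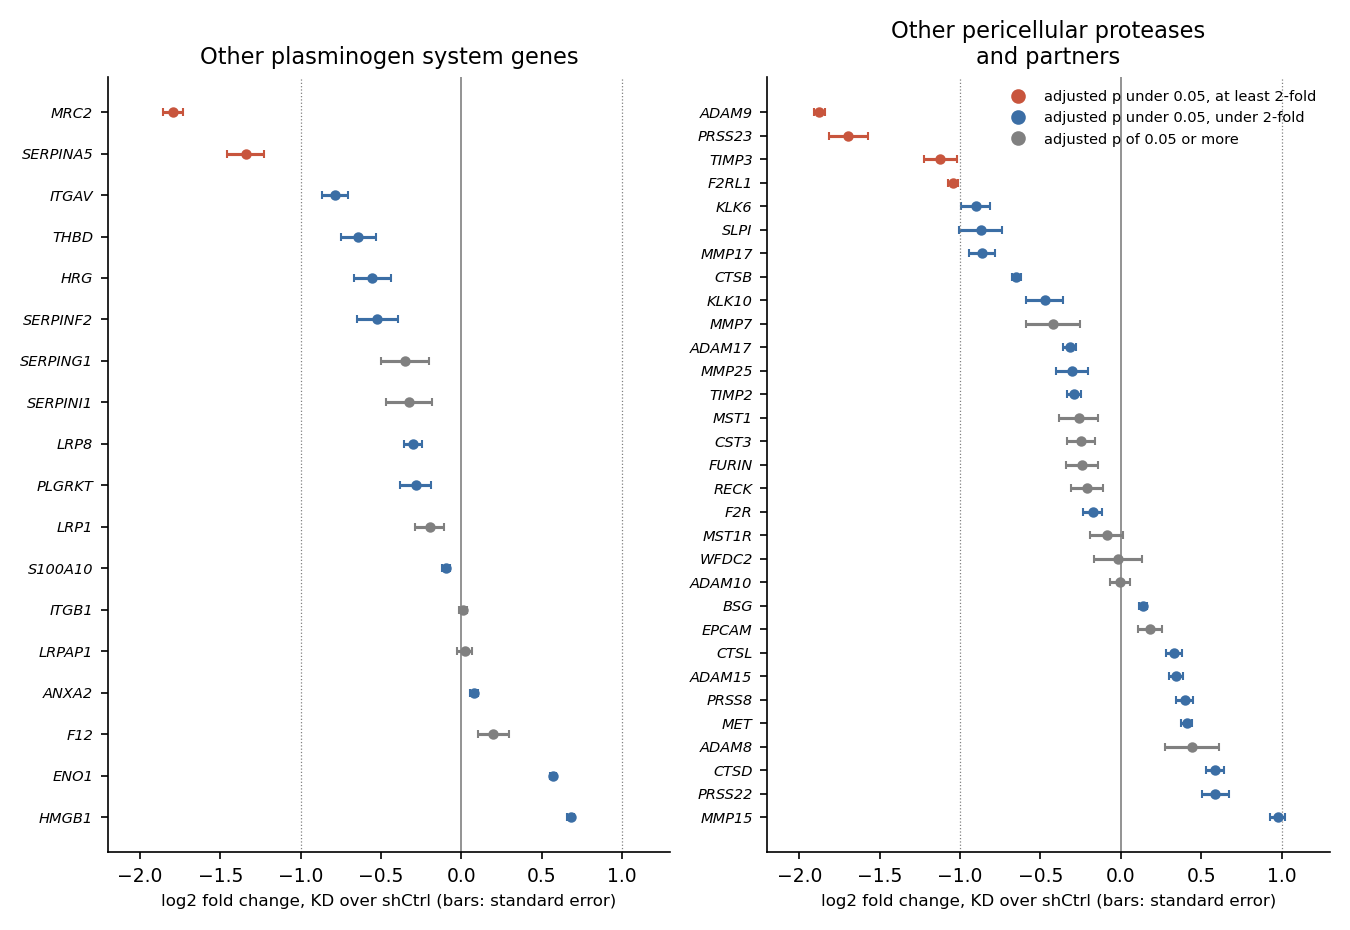
Log2 fold change of KD over shCtrl with standard errors (limma, log2(TPM + 1), n = 3 per group) for the 18 tested genes of the plasminogen system list and the 31 tested genes of the pericellular protease list. Red points passed an adjusted p under 0.05 and 2-fold, blue points the adjusted p alone, and all 6 red points lie below 0. SERPINA5 and PRSS23 (red) and HRG and THBD (blue) met the filter through the shCtrl libraries. Their place below 0 is therefore no support for the lists.

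Among the genes that were higher, MMP15 stood closest to the 2-fold threshold. It encodes MT2-MMP, a membrane metalloproteinase related to MMP14, and measured 13.24, 12.97 and 13.01 TPM with the control hairpin and 22.09, 22.94 and 22.58 TPM with the GMDS-AS1 hairpin. The groups were well apart, with a log2 difference of 0.98 (SE 0.0469, limma adjusted p = 6.87e-06). MMP14 and MMP15 thus had nearly the same level in control cells, 12.7 and 13.1 TPM on average, and 7.09 and 22.5 TPM in KD cells. PRSS8, which encodes prostasin, a membrane-anchored protease that works in a cascade with matriptase, had a log2 difference of 0.40 (SE 0.0535, limma adjusted p = 0.000795). With TPM as deposited it was 0.16 and no longer passed the threshold (limma adjusted p = 0.05).

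HGF and MST1 (macrophage-stimulating protein) are growth factors that proteases of this kind activate, and MET and MST1R are their receptors. HGF was listed at 0.01 TPM in 1 library and at 0 in the other 5, while MET was at 61.09 to 61.59 TPM in the shCtrl libraries and at 66.8 to 72.13 TPM in the KD libraries, with a log2 difference of 0.41 (SE 0.0348, limma adjusted p = 8.61e-05) that was 0.17 with TPM as deposited. MST1, named with its receptor after the values were seen, was at 4.18 to 7.28 TPM and MST1R at 21.26 to 33.15 TPM over the 6 libraries. Neither passed the test (limma adjusted p = 0.114 and 0.495, log2 differences of -0.26 and -0.09). EPCAM, an epithelial adhesion protein that matriptase can cleave, had a log2 difference of 0.18 (limma adjusted p = 0.0758) that was -0.06 with TPM as deposited.

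Over the 6 libraries, the genes whose pattern was most like that of PLAU were looked for among 10897 other genes tested with at least 5 TPM in a group, by the root mean square difference between centred log2 values. The nearest were GLO1, with a difference of 0.0619, HOXA-AS2 with 0.0828, PCK2 with 0.0893, MT1F with 0.109 and MT1X with 0.12. GLO1, a glyoxalase, measured 153.11, 149.74 and 147.7 TPM with the control hairpin and 18.11, 19.05 and 17.0 TPM with the GMDS-AS1 hairpin. PCK2 encodes the mitochondrial phosphoenolpyruvate carboxykinase, and MT1F and MT1X are metallothioneins, a family of near-identical genes among which reads can be split. None of the 5 belongs to the lists above, and with 2 groups of 3 libraries likeness over the libraries is mainly likeness in the size of the fold change.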

How the data were processed

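Poly-A selected TruSeq libraries of 3 shCtrl and 3 GMDS-AS1 KD samples of HCT116 cells were sequenced in pairs of reads. Trimmomatic 0.27, TopHat2 2.1.1 and GRCh38.p13 are named in the submitters' processing notes, Cufflinks and RSEM in the study's methods. Values are TPM for each Ensembl gene as deposited, rounded, with no scaling between libraries. Lines of 2 genes are broken and hold no value. TPM keeps no read total, so no counting error can be given.

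The tests were made with limma 3.58.1 in R 4.3.3 on log2(TPM + 1), with a variance trend, after scaling by the trimmed mean of log ratios (30% of ratios and 5% of means trimmed) over the 16901 genes that reached 0.5 TPM in 3 or more libraries. Calls needed a Benjamini-Hochberg adjusted p under 0.05 and a 2-fold change. Named genes were the 9 members, GMDS-AS1, listed genes that were called, 13 listed genes fixed by name, genes overlapping a member and the 5 nearest to PLAU. Members, lists and rules were chosen with earlier results of these data known. The ratios of PLAU to PLAT and to SERPINE2 and the summed levels were added after the values were seen. Same-numbered libraries did not deviate together (correlations -0.038, 0.014 and 0.029), so no pairing was used. Positions, overlaps and UTRs came from GENCODE v29 (GRCh38), where 58394 of the 60662 identifiers were found, and promoters from RefSeq. The fit was tested on simulated data. Protein sequences were not used here, and 1 gene of the plasminogen system list is not reported here and is left out of its counts.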

Additional observations from a re-analysis of the deposited data

How the results depend on the processing

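Scaling, pseudocount, filter, variance trend, replicate block and call rule were varied in turn, and each library was left out. All 9 members kept the sign of their log2 fold change in the 13 alternatives. The filters, the variance trend and the replicate block could not change these fold changes. Only the scalings, the pseudocount and the libraries left out could have changed a sign. The median of the members, -0.24, became -0.46 with TPM as deposited and -0.32 with upper-quartile scaling. It ran from -0.30 to -0.22 without each library in turn. Against 1212 genes called, a pseudocount of 0.1 gave 2209 and an adjusted p alone gave 9182, and leaving out each library gave 1138 to 1241. Against 2 genes of the plasminogen system list, a pseudocount of 0.1 gave 4. The genes gained were HRG and THBD, which passed the filter only through the shCtrl libraries and are no support. TPM as deposited gave 3, with ITGAV gained. The filter of 1 TPM in every library gave 1, because SERPINA5 was then not tested. An adjusted p alone gave 12, and 2 were called without any 1 library. Against 4 genes of the pericellular protease list, TPM as deposited gave 7, the filter of 1 TPM in every library gave 2, because PRSS23 and TIMP3 were then not tested, and an adjusted p alone gave 21. Without any 1 shCtrl library 3 were called, since PRSS23 was not tested, and 4 without any 1 KD library. With a pseudocount of 0.1, MMP15 was called as higher. The direction of ANXA2 was reversed with TPM as deposited (-0.169) and with upper-quartile scaling (-0.012), and that of EPCAM with TPM as deposited (-0.064). LRP1 passed an adjusted p of 0.05 with TPM as deposited (0.00816) and with upper-quartile scaling (0.039). For the 16 genes of these lists that were named and tested, 181 of 202 alternatives kept the direction and the side of the threshold. These genes include SERPINA5 and PRSS23, which met the filter through the shCtrl libraries. All alternatives of these genes are among the 181 and are no support. With the replicate block 1216 genes were called and the counts of both lists stayed at 2 and 4, but the adjusted p was 0.054 for PLGRKT, 0.0542 for ANXA2 and 0.0518 for GMDS-AS1 (limma). Of the 6 libraries 2 correlated best with their own number. Values under about 1 TPM are limited by depth, which is unknown.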
